A study of Rattus norvegicus with 9 samples.

Results

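Axon guidance ligands and receptors were described in the cerebral cortex of 9 irradiated rats, through every array probe whose gene symbol belongs to the semaphorins, plexins, neuropilins, ephrins, Eph receptors, netrins, netrin receptors, Slits, Robo receptors, collapsin response mediators or the Nogo group. The symbol rule took in 62 probes of the 22517 on the array, each for a different gene, and used no measured value. Of these, 48 were bright enough to be tested and 37 exceeded the background on all 9 arrays. All animals were Sprague-Dawley rats, which are outbred, and all had been irradiated before birth, on gestation day 17, with 145 cGy from caesium. Cortex was taken at 60 days of age and its RNA was read on Illumina bead arrays, 1 array per animal. Rats treated in this way serve the series as an animal model of cortical dysplasia, in which the layering of the cortex is malformed. The groups were 4 males and 5 females, and both carried the same irradiation. Unirradiated animals were not analysed here, so no value below measures an effect of radiation. The sample titles hold 1 of 3 numbers whose meaning is not stated, called title numbers here. The first belongs to male 1, male 2 and female 1. The second belongs to male 3 and male 4, with female 2 and female 3. The other 2 animals, female 4 and female 5, have the last. The labels do not say whether animals shared a litter, and p-values measure only the spread between these animals.

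Guidance molecules steer growing axons by attraction or repulsion at the growth cone. Semaphorins act through plexins, with neuropilins as co-receptors for most secreted forms, and collapsin response mediators carry part of that signal to the cytoskeleton. Ephrins sit in the membrane and signal to Eph receptors on touching cells, netrins attract through Dcc and repel through Unc5 receptors, and Slits repel through Robo receptors. Nogo, the product of Rtn4, is a protein of oligodendrocytes and neurons that restrains neurite growth through the Nogo receptor. In the adult cortex many of these genes remain in use at synapses, in glia and in vessels.

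Median raw intensity was 47.9 to 57.3 over the arrays, and between 11857 and 12392 probes exceeded an array's background bound, which lay at 46.6 to 54.1 on the same scale. Over the 12370 tested probes, any pair of arrays had a correlation of log2 intensity between 0.979 and 0.993. The first principal component, with 33.5% of the variance, gave scores of 16.1 to male 2, 19.0 to female 1 and 17.5 to female 3, and of -13.1 to -4.53 to the other animals. Of the glutamatergic and layer markers, 8 of the 9 represented on the array exceeded the bound in every animal, which does not by itself identify cortex. Myelin markers numbered 12 of 12 and striatal markers 10 of 11 by the same measure, against 6 of 10 for meninges and 2 of 10 for choroid plexus. Over the whole array, 9995 of 22517 probes exceeded the bound in every animal. A list score is an animal's mean deviation, over a list's tested members, from each probe's average log2 value. Myelin scores ranged from -0.20 to 0.35 in males and from -0.92 to 0.45 in females, meningeal scores from -0.22 to 0.28 in males and from -0.81 to 0.37 in females, and striatal scores from -0.44 to 0.17 in males and from -0.41 to 0.58 in females. Choroid plexus scores had the widest range, from -0.65 to 0.0011 in males and from -0.38 to 1.71 in females, with female 1 highest. In bulk tissue, fewer cells of a type and less RNA per cell cannot be told apart.

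The adult cortex gave a signal for members of every guidance family, in the netrin group mainly for netrin-G genes. A probe was counted as measured on an array when its raw intensity exceeded the bound there. Of the ligands, 9 of 16 semaphorins, 3 of 7 ephrins and all 3 Slits were above the bound on all arrays. Of 5 netrins and netrin-G genes, 1 was, the netrin-G gene Ntng1. Ntng2 was above it on 7 arrays, and the netrins Ntn1, Ntn3 and Ntn5 on 2, 1 and 4. Among receptors, 5 of 6 plexins and neuropilins, 4 of 8 Eph receptors, 3 of 5 netrin receptors and Robo2 were above the bound on all arrays. All 4 collapsin response mediators (Crmp1, Dpysl3, Dpysl4 and Dpysl5) and 3 of 4 genes of the Nogo group (Rtn4, Rtn4r and Rtn4rl2) were above it throughout. In all, 37 of the 62 members exceeded the bound on every array, beside 9995 of the 22517 probes on the array. Among those tested, 37 of 48 members (77.1%) did so, beside 80.8% of all tested probes.

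Several ligands and receptors stood at or near background. The ephrin Efna4, the Eph receptor Epha2 and the transmembrane semaphorin Sema4c were not above the bound on any array. Dcc, the attractive netrin receptor, was above it in 1 of 9 animals (female 1), and so were Unc5d in 1 male, Ephb3 in 1 male, and Nrp2, Ntn3 and Sema5b in 1 female each. Netrin-1 (Ntn1) exceeded the bound in 2 males and in none of the females, and its values lay within 4.82 to 5.25 on the log2 scale, too close to background for a fold. Efnb2 and Sema6d stood at 2 of 9 animals and Efna1 at 3 of 9. With Unc5cl, above the bound in 1 of 9 animals, these were the members not tested. The symbol rule also took in Rtn4ip1, a mitochondrial protein that binds Nogo, Unc50, a membrane protein of the Golgi, and Unc5cl, a death-domain protein named after Unc5c, which are not guidance molecules.

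Irradiated males and females were compared, the sexes being the groups that the labels give. No member passed the test, in limma's moderated test with p-values adjusted by Benjamini-Hochberg over all 12370 probes tested (0 of 48, beside a background of 0% of all probes). At an unadjusted p under 0.05 stood 1 of 48 members, Sema3b, beside 1.93% of all probes. No member had every male above every female or the reverse, beside 0.396% of all probes in each direction. The median difference, male minus female, was -0.02 over the members and 0.0018 over all tested probes. Positive differences were found for 17 of 48 members (35.4%), against 50.9% of all tested probes. Sex-specific genes were not examined as a control, so the absence of calls does not show that the sexes are alike.

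**Figure D1:**
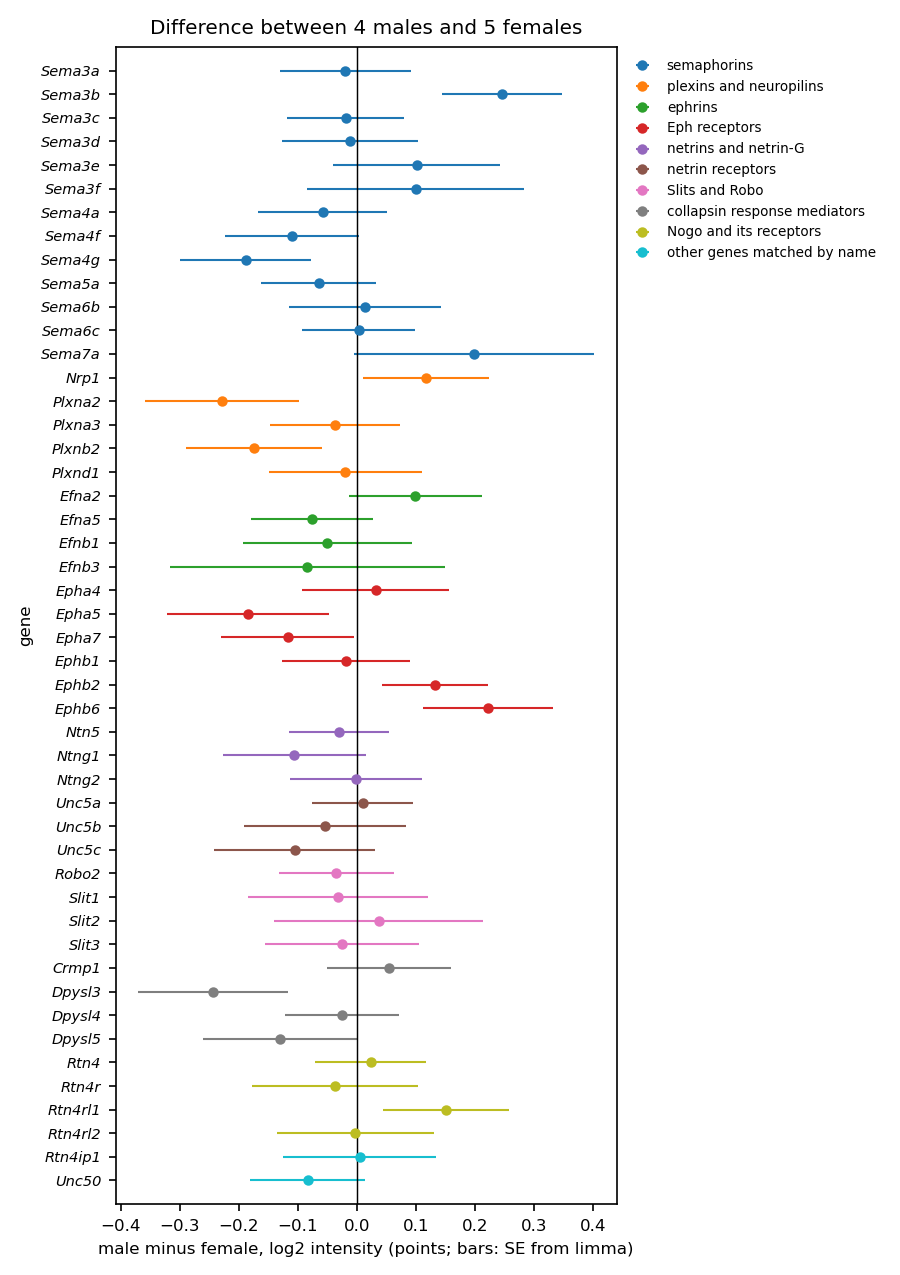
Male minus female difference in log2 intensity for each of the 48 tested probes, coloured by family, with the standard error from limma as bars. Sema3b has the highest difference, at 0.25, and Dpysl3 the lowest, at -0.24.

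Toward males, Sema3b and Ephb6 had the widest differences. Sema3b, a secreted semaphorin that signals through neuropilins, read 6.20, 6.19, 6.36 and 5.97 on the log2 scale in males 1 to 4, against 5.86, 5.85, 6.13, 5.84 and 6.0 in females 1 to 5. The ranges overlapped, with male 4 below 2 of the females. It averaged 6.18 ± 0.16 over the males (SD, n = 4) and 5.94 ± 0.13 over the females (SD, n = 5), a difference of 0.25 ± 0.10 (SE), with an unadjusted p of 0.032 in limma and an adjusted p of 1.00. Both sexes occur under the first and the second title number, where the difference was 0.34 and 0.17. Ephb6, an Eph receptor without kinase activity, read 7.67, 7.86, 7.76 and 7.81 in males, against 7.56, 7.70, 7.51, 7.23 and 7.76 in females. Females 2 and 5 lay within the range of the males and the other 3 females below it, female 4 lowest. Its difference was 0.22 ± 0.11 (SE, adjusted p 1.00 in limma) and was 0.14 without female 4, against 0.20 and 0.18 within the title numbers.

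None of the other members with a positive difference had an unadjusted p under 0.05. Rtn4rl1, a relative of the Nogo receptor, differed by 0.15 ± 0.11 (SE) and Ephb2, a receptor for B-type ephrins at synapses, by 0.13 ± 0.09, and both exceeded the bound in all 4 males but in 3 of 5 females. For Rtn4rl1 the value was 0.098 without female 3. Sema7a, a membrane-anchored semaphorin, differed by 0.20 ± 0.20, Nrp1, the co-receptor of secreted semaphorins and VEGF, by 0.12 ± 0.11, Efna2, an A-type ephrin, by 0.10 ± 0.11 and Sema3e, the ligand of plexin D1, by 0.10 ± 0.14. Sema7a ranged from 0.096 without female 3 to 0.33 without female 5, and stood at 0.034 without the 3 arrays that lay apart on the first principal component. Nrp1 stood at 0.042 without male 1, and within the title numbers it took opposite signs, at 0.40 and -0.11. Efna2 also took opposite signs there, at -0.18 and 0.29, and stood at 0.062 without male 2 and 0.19 without male 1. Sema3e had -0.18 and 0.16 within the title numbers, and the difference turned to -0.014 without male 3 and was 0.21 without male 2 and 0.24 without the 3 arrays apart.

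Toward females, Dpysl3 and Plxna2 had the widest differences. Dpysl3, a cytoskeletal phosphoprotein of growing neurites, read 5.13, 5.55, 5.08 and 5.25 in males, against 5.59, 5.45, 5.75, 5.48 and 5.20 in females. Male 2 lay among the females and female 5 among the males. The probe was near background, with a raw intensity of 47.7 in male 3 against a bound of 47.3 there. In male 1 it was 54.1 against 52.0. Dpysl3 exceeded the bound in every animal. Its log2 value averaged 5.25 ± 0.21 over the males (SD, n = 4) and 5.49 ± 0.20 over the females (SD, n = 5). The difference was -0.24 ± 0.13 (SE, adjusted p 1.00 in limma), with -0.25 and -0.43 within the title numbers. Plxna2, a semaphorin receptor, read 6.72, 7.03, 6.44 and 6.83 in males, against 7.07, 6.81, 7.24, 7.01 and 6.79 in females. Male 3 was the lowest animal and female 3 the highest, and without male 3 the difference of -0.23 ± 0.13 (SE) was -0.12. Plxnb2, the plexin of class 4 semaphorins, differed by -0.17 ± 0.12 and Sema4g, of that class, by -0.19 ± 0.11. Plxnb2 stood at -0.26 without female 5 and at -0.10 without the 3 arrays apart. Sema4g stood at -0.11 without female 4. Among receptors of A-type ephrins, Epha5 differed by -0.18 ± 0.14 and by -0.098 without female 1 or -0.29 without male 2, and Epha7, which 1 of 4 males and 3 of 5 females had above the bound, by -0.12 ± 0.11. Dpysl5 and the transmembrane semaphorin Sema4f differed by -0.13 ± 0.13 and -0.11 ± 0.11, and by -0.037 and -0.026 without female 4. Dpysl5 stood at -0.20 without female 5, and without the 3 arrays apart Dpysl5 stood at -0.21 and Sema4f at -0.19. Dpysl5 too was near background, with a raw intensity of 46.69 in male 4 against a bound of 46.64.

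By family, the median male minus female difference was -0.01 for 13 tested semaphorins, -0.04 for 5 plexins and neuropilins, -0.06 for 4 ephrins, 0.0063 for 6 Eph receptors, -0.03 for 3 netrin and netrin-G genes and -0.05 for 3 netrin receptors. It was -0.03 for the 4 Slit and Robo genes, -0.08 for the 4 collapsin response mediators and 0.01 for the 4 genes of the Nogo group. No family median exceeded the SE of any of its tested members. Among markers of other cells, positive male minus female differences were found for 12 of 12 tested myelin genes (median 0.21), 8 of 10 meningeal genes (median 0.18) and 3 of 3 blood cell genes (median 0.39), beside 50.9% of all tested probes. They were found for 1 of 10 striatal genes (median -0.31) and 0 of 5 choroid plexus genes (median -0.32). In the remaining lists the counts were 5 of 8 glutamatergic and layer genes, 5 of 11 GABAergic, 5 of 9 astrocyte and 5 of 10 microglial genes. For oligodendrocyte precursors the count was 4 of 6, for endothelium 2 of 6 and for hippocampus 1 of 5. The myelin score was -0.92 in female 4, but -0.20 to 0.45 in the other females, beside -0.20 to 0.35 in males. The lowest meningeal score was -0.81, in female 5, and the highest choroid plexus score was 1.71, in female 1. None of these marker genes passed limma's test, and the lists themselves were not tested. Their part in the members' differences was not tested.

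The 3 title numbers were compared with sex in the model, as a possible batch or litter. No member passed limma's moderated F test with adjustment over all tested probes (0 of 48, beside 0% of all probes). At an unadjusted p under 0.05 stood 1 of 48 members, beside 9.22% of all probes. This was Epha4, the Eph receptor that binds both ephrin classes, at an unadjusted p of 0.042 and an adjusted p of 0.540 in limma. Epha4 read 10.99, 11.24 and 11.19 in male 1, male 2 and female 1 of the first number, 10.73, 10.88, 10.79 and 11.05 in the animals of the second (male 3, male 4, female 2, female 3), and 10.73 and 10.90 in those of the last (female 4, female 5). Female 3 lay within the range of the first number, and the other animals of the second and the last lay below it. Male 2 and female 1 are among the 3 arrays apart, and without those arrays the span between the sex-adjusted means of the numbers was 0.18, against 0.39 with them.

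The next members by that test were Unc5b, Unc5c, Rtn4ip1, Sema3e and Efnb3. Unc5b, a repulsive netrin receptor also found in vessels, averaged 6.28, 6.11 and 5.96 on the log2 scale over the first, the second and the last number (adjusted p 0.562 in limma). Unc5c, a repulsive netrin receptor of neurons, averaged 7.40, 7.29 and 7.67 over the numbers (adjusted p 0.606 in limma). The span between sex-adjusted means was 0.40 for Unc5c, 0.23 without female 4 and 0.16 without the 3 arrays apart. Rtn4ip1 averaged 5.15, 5.41 and 5.43, and Sema3e 5.15, 5.37 and 5.0. The span for Sema3e was 0.36, and 0.22 without female 4. Efnb3 spanned 0.66 between the numbers, which became 0.024 without female 4 and 1.30 without female 5 (the span is the widest gap between the sex-adjusted means of the numbers). The sex difference was also compared between the first number, with female 1 as its only female, and the second. No member passed that test in limma (0 of 48, beside 0.0162% of all probes), and at an unadjusted p under 0.05 there were 0 of 48, beside 1.83% of all probes. The 2 probes called were Ttr and Slco1a5, neither of them a guidance gene, and both were named after their values were seen. Ttr is in the choroid plexus list.

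Guidance genes varied between animals about as much as the average probe. The within-sex SD, taken over all 9 animals after removal of the sex means, had a median of 0.172 log2 units over the 48 tested members and 0.166 over all tested probes. It exceeded 0.3 for 4 members (8.33%), beside 8.92% of all tested probes. These were Efnb3, Sema7a, Sema3f and Slit2, all ligands. The lowest was 0.085, for Ntn5, a probe near background that exceeded the bound in 4 of 9 animals. Rtn4, the Nogo gene itself, had an SD of 0.12 and lay between 12.20 and 12.48 in all animals.

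**Figure D2:**
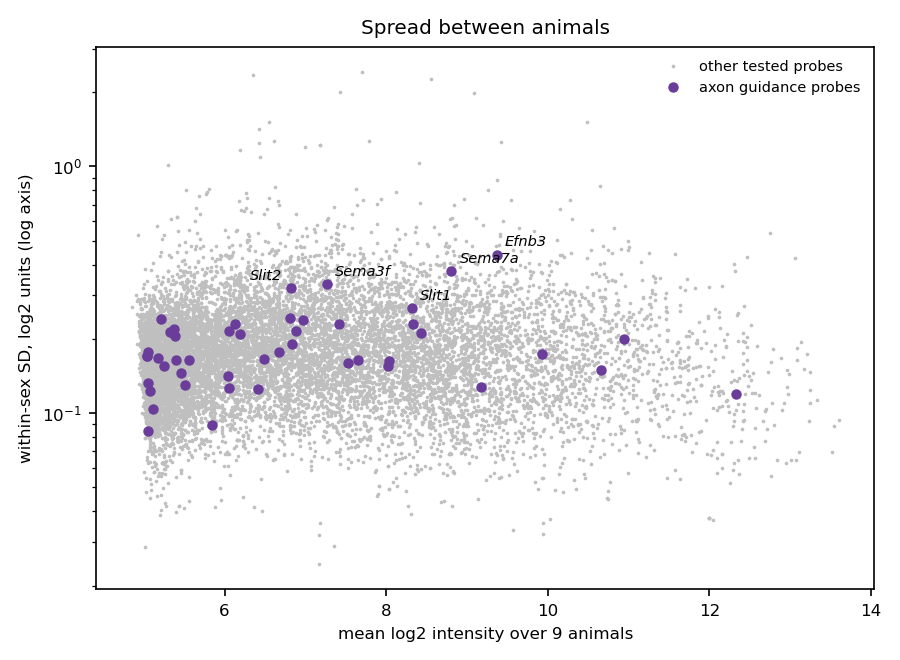
Within-sex SD of log2 intensity (log axis) against mean log2 intensity over 9 animals, for the 48 tested axon guidance probes and all other tested probes in grey. Efnb3, Sema7a, Sema3f and Slit2 lie above 0.3, and the other members lie among the bulk of the probes.

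Efnb3, a transmembrane ephrin known in the mouse as a midline barrier to corticospinal axons, owed its spread to 1 animal. It read 9.30, 9.28, 9.29 and 9.40 on the log2 scale in males, against 9.16, 9.05, 9.23, 10.43 and 9.15 in females. Female 4 stood alone at 10.43, and the other 8 animals lay within 9.05 to 9.40. Its raw intensity was 1445 in female 4 and 506 to 738 in the other animals. Female 4 was 2.30-fold above the mean of the others, a gap that 13 of the tested probes (0.105%), Efnb3 included, reached or exceeded in that animal. The within-sex SD was 0.44 with female 4 and 0.066 without. In the same animal the myelin score was -0.92, the lowest of the 9, as was the score of the glutamatergic and layer markers at -0.27. The hippocampal, microglial and GABAergic scores, at 0.26, 0.20 and 0.18, were the highest of the 9. In addition, 3 genes outside the guidance families, chosen after their values were seen, were higher in female 4 than in any other animal. So were 14.6% of all tested probes, and no list of thalamic or hypothalamic markers was scored. Slc17a6, the vesicular glutamate transporter of thalamic and other subcortical neurons, read 9.51 in female 4, against 7.81 to 8.80 in the others. Nr2f2, a transcription factor of ventral and caudal forebrain, read 6.82 in female 4, against 5.35 to 6.03. Hap1, a huntingtin-binding protein abundant in hypothalamus, read 9.72 in female 4, against 7.38 to 8.0. Their part in the Efnb3 value was not tested.

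Female 4 was the highest of the 9 animals for 13 of 48 tested members (27.1%), beside 14.6% of all tested probes, and the lowest for 8 (16.7%), beside 14.2%. These counts were made after the values were seen. The members at their highest there included the ligands Slit1, Slit3, Sema4a, Sema4f, Sema4g, Sema6b, Efnb1 and Efnb3, the receptors Plxnd1, Unc5a and Unc5c, and Dpysl4 and Dpysl5. Slit1, a midline repellent, read 8.36, 8.36, 8.40 and 8.08 in males, against 8.05, 8.25, 8.47, 8.84 and 8.07 in females. Efnb1, a B-type ephrin, read 6.73, 6.93, 6.67 and 6.80 in males, against 6.95, 6.72, 6.94, 7.19 and 6.37 in females. For Efnb1 the 2 animals of the last title number were the extremes, female 4 highest and female 5 lowest. Unc5c read 7.38, 7.60, 7.24 and 7.19 in males, against 7.23, 7.52, 7.19, 7.84 and 7.51 in females. The lowest values of Slit2, Sema3f, Sema3e, Sema3b, Sema3d, Robo2, Ephb1 and Ephb6 were in female 4.

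**Figure D3:**
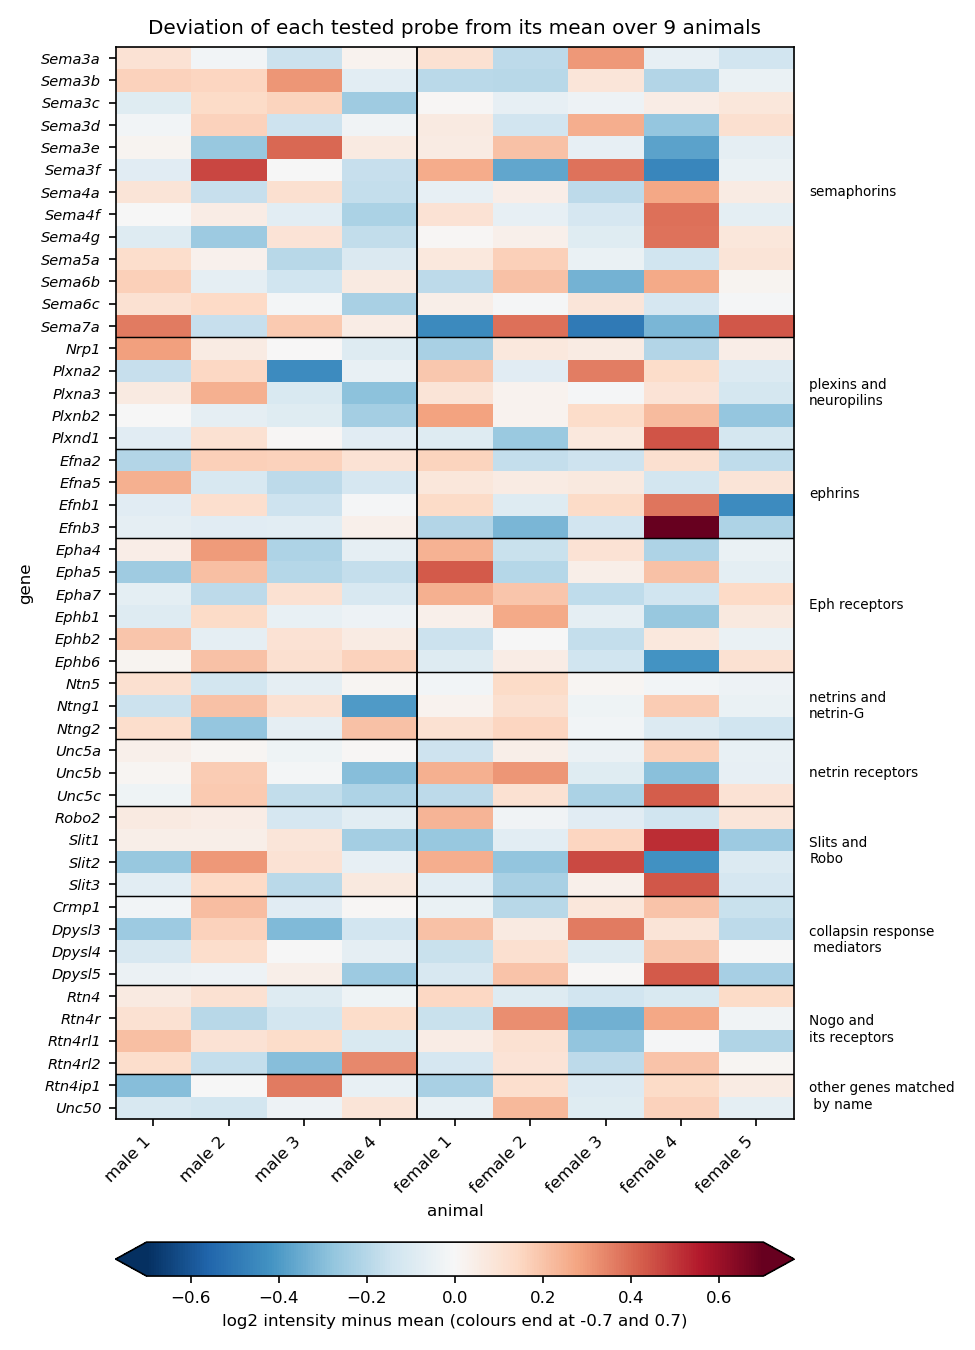
Deviation of each of the 48 tested probes from its mean over the 9 animals, in log2 units, with males left of females and genes grouped by family. The column of female 4 holds the highest value of 13 genes, and Efnb3 is the deepest of them.

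Sema7a, a membrane-anchored semaphorin, read 9.17, 8.65, 8.99 and 8.86 in males, against 8.36, 9.19, 8.31, 8.48 and 9.24 in females. The females lay at 2 levels, with females 2 and 5 above every male and females 1, 3 and 4 below every male. The highest animal was 1.91-fold above the lowest, and the within-sex SD was 0.38. Rtn4r, the receptor of Nogo, read 7.08, 6.78, 6.85 and 7.11 in males, against 6.82, 7.30, 6.64, 7.24 and 6.95 in females. Its lowest 3 values were those of male 2, female 1 and female 3, the arrays that stood apart on the first principal component.

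**Figure D4:**
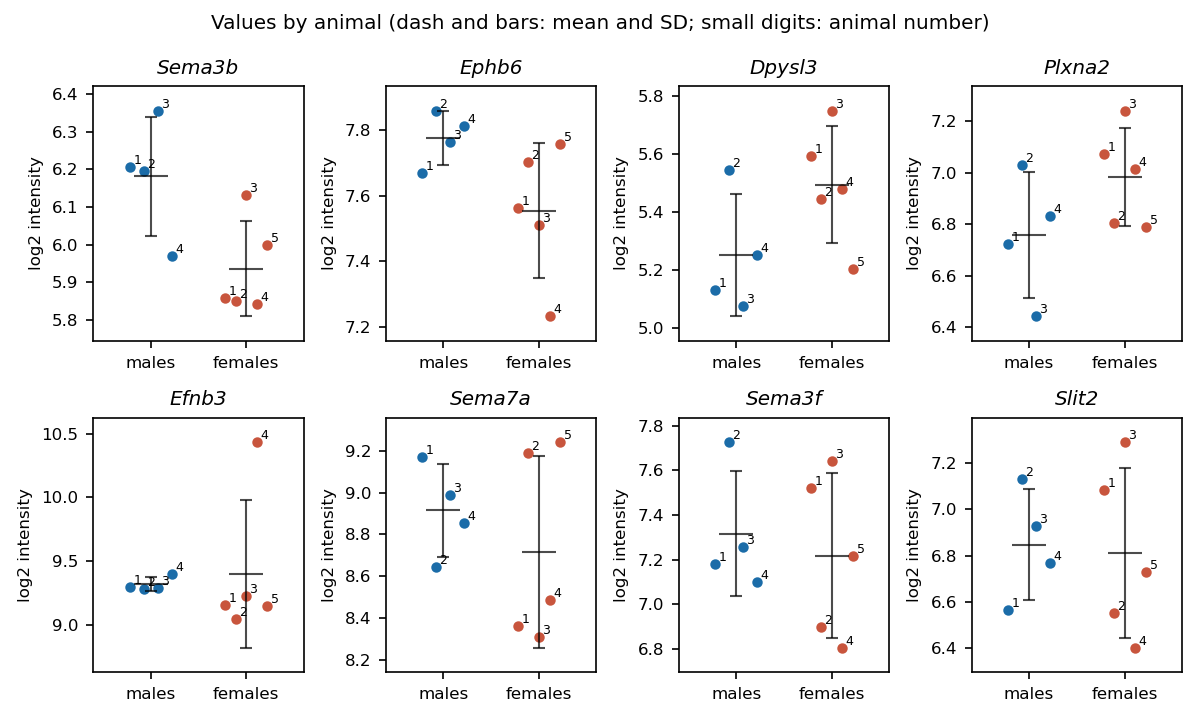
Log2 intensity by animal for 8 members, males left of females, with the mean and SD of each sex in black. Sema3b, Ephb6, Dpysl3 and Plxna2 have overlapping sexes, Efnb3 has female 4 alone at 10.43, and Sema3f and Slit2 are highest in male 2, female 1 and female 3.

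Male 2, female 1 and female 3 lay above all other animals for 5 of 48 tested members (10.4%), beside 10.2% of all tested probes, and below all others for 2 (4.17%), beside 10.7%. Since these arrays were singled out on the same data, the counts describe them and carry no test. Those above were Sema3f, Slit2, Epha4, Plxna2 and Dpysl3, and those below were Rtn4r and Ephb2. Sema3f, a secreted semaphorin that acts through neuropilin 2, read 7.18, 7.73, 7.26 and 7.10 in males, against 7.52, 6.90, 7.64, 6.81 and 7.22 in females. It averaged 7.63 on the 3 arrays apart, against 7.08 on the other 6. Slit2, a repellent for Robo receptors, read 6.56, 7.13, 6.93 and 6.77 in males, against 7.08, 6.55, 7.29, 6.40 and 6.73 in females, and averaged 7.17 on the arrays apart, against 6.66 on the others. The same gap was 0.36 for Dpysl3, 0.35 for Plxna2 and 0.32 for Epha4, and it was -0.34 for Rtn4r and -0.19 for Ephb2. Sema7a differed by -0.55 in the same sense, with female 4 below male 2 so that the arrays did not separate.

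Upstream sequence is given for the members just described as most variable or as set apart on these arrays, where the RefSeq promoter table of GRCr8 holds an entry. Each window is the 250 bases before the annotated start of the gene, 5′ to 3′ on the gene's strand, and capitals mark the GC box, the letters GGGCGG on either strand, overlapping matches included.
Sema7a, chr8:67244068-67244317, plus strand: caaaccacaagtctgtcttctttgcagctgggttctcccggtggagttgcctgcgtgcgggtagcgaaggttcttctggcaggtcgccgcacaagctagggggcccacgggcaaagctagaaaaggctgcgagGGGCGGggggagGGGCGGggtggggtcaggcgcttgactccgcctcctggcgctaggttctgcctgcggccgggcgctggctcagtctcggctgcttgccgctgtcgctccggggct
Rtn4r, chr11:96373555-96373804, minus strand: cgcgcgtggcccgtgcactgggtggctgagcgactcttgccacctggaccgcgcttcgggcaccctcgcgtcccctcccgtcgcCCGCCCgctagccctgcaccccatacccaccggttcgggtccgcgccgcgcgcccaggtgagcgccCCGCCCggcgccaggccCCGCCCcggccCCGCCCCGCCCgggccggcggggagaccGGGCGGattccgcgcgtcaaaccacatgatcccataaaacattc
Plxna2, chr13:108691280-108691529, plus strand: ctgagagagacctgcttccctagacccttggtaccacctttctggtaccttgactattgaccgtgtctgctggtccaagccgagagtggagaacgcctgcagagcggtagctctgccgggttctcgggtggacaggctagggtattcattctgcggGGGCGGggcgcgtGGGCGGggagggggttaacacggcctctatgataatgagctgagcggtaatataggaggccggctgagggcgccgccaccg
Dpysl3, chr18:35688512-35688761, minus strand: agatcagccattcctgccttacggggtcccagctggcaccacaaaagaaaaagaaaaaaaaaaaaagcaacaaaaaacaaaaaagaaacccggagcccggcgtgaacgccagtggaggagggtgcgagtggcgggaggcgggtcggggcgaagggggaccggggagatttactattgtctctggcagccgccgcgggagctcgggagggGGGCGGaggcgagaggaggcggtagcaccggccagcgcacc
Ephb2, chr5:154360425-154360674, minus strand: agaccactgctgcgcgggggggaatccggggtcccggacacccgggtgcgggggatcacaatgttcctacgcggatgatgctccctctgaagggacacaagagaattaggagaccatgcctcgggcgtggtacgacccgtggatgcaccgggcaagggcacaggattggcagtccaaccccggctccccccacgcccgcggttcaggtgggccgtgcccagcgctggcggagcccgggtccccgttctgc
Efnb1, chrX:68297279-68297528, plus strand: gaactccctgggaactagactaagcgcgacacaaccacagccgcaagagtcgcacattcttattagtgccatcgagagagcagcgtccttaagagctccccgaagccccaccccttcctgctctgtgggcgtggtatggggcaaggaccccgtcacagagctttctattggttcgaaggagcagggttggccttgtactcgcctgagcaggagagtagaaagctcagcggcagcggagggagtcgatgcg
The windows of Rtn4r, Sema7a, Plxna2 and Dpysl3 held 6, 2, 2 and 1 GC boxes, and those of Ephb2 and Efnb1 held 0. Efnb3, Epha4, Sema3f, Slit1, Slit2 and Unc5c were not matched in the table.

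Over the 48 members matched in the promoter table, the 250-base windows tended to be richer in CpG than those of protein-coding genes. These are not the same 48 as the tested members. Dcc, for example, was matched but not tested, and Efnb3 was tested but not matched. The matched windows had a median GC content of 63.2%, against 54.8% over the windows of 19005 protein-coding genes and 52.0% over all 27457 windows. The ratio of CpG found to that expected from base composition exceeded 0.6 in 29 of 48 members (60.4%), against 43.8% of protein-coding genes and 35.0% of all windows. A GC box was present in 27 of 48 members (56.2%), against 40.2% of protein-coding genes and 32.3% of all windows, and it overlaps in composition with the CpG count. The letters TATAAA, searched on both strands, were found in 0 of 48 members, against 12.4% and 13.1%. The letters CCAAT were found in 16 of 48 (33.3%), against 35.4% and 34.2%, and the letters CACGTG in 2 (4.17%), Ntn3 and Sema3e, against 6.37% and 5.77%. The Egr site GCGTGGGCG, which overlaps a GC box in the window of Plxna2, was found in Plxna2 and Sema6d (4.17%), against 0.679% of protein-coding genes and 0.517% of all windows. A cAMP response element, TGACGTCA, was found in 1 window, that of Epha2 (2.08%), against 2.01% of protein-coding genes and 1.68% of all windows. These matches are descriptions of letters, with no test.

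The intracellular partners of the receptors and guidance cues outside the symbol rule were set beside the members. Of 36 listed effectors, among them kinases and adaptors of the growth cone, 32 had a probe and 27 of those were above the bound on all arrays. None of the 30 tested effectors passed limma's test between the sexes in either direction, and 0 had an unadjusted p under 0.05, beside 1.93% of all probes. Their median difference, male minus female, was -0.03. Those with the smallest p were Limk1, the kinase that inactivates cofilin, at 0.21 ± 0.12 (SE), and Nck2, an adaptor between receptors and actin, at 0.18 ± 0.11. Limk1 averaged 8.35 ± 0.08 over the males (SD, n = 4) and 8.14 ± 0.25 over the females (SD, n = 5). Of 31 other cues and receptors, 19 had a probe, 15 exceeded the bound in every animal and 18 were tested. None of these passed either, 0 had an unadjusted p under 0.05, and their median difference was 0.0061. Those with the smallest p were Rgma, a repellent that binds neogenin, at -0.18 ± 0.10 (SE), and Flrt1, of a family of Unc5 ligands, at -0.15 ± 0.09.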

How the data were processed

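The authors deposited a file of linear intensity values for each array, without detection p-values. Array medians differ, so the arrays had not been scaled to a common median or quantile-normalised. The authors' deposited value table holds log2 values for 15912 probes, normalised between arrays, by steps not given in the sources used here. It had 0 columns of other samples. Here, background was corrected in limma 3.58.1 (R 4.3.3) by normexp (offset 16), followed by quantile normalisation and log2. The 99th percentile of the 6605 probes absent from the value table was an array's background bound, which tested probes had to exceed on 4 or more of the 9 arrays.

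Names came from the platform annotation. All 62 members matched GRCr8 RefSeq gene identifiers, and 48 had a promoter entry. The Sema4a probe shares its values with 1 unnamed probe. Males and females were compared with limma (lmFit, eBayes), two-sided, over all tested probes, then the title numbers with sex as covariate, and their interaction. The fits were tested on simulated data. Members and lists were chosen with earlier results of these data known. Genes were described by a rule: those with the smallest p between the sexes (8 in each direction) and between title numbers (6), and the 8 above the bound throughout with the largest within-sex SD. Replicate numbers follow sample order and only name animals. Between animals, deviations from sex means correlated at a median of -0.14 for the same title number and -0.22 for different numbers, and the labels do not explain the number. The array count limits precision. Alternatives were other background steps, offsets, scalings, filters and bounds, the authors' values, a variance trend, a block by title number, and left-out animals.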

Additional observations from a re-analysis of the deposited data

Results flagged for a closer look

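In 52 sets of male or female values of the described genes, a single animal far from its group was looked for with Dixon's test. It marks about 1 in 20 sets by chance where sets are not chosen by their values. The described genes were chosen by p-value or spread in these data, so that rate is no reference here. The test marked 3 sets. Efnb3 in females was marked for female 4, at 10.43 on the log2 scale against 9.23 for the nearest female, a gap that made up 0.866 of the range. Efnb3 in males was marked for male 4, at 9.40 against 9.30 for the nearest male, or 0.853 of a narrow range. Slit1 in males was marked for male 4, at 8.08 against 8.36 for the nearest male, or 0.865 of the range.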

How the results depend on the processing

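No member was called in any fit under any alternative. Counts over all tested probes moved with the settings. Between the sexes, where 0 were called, leaving out 1 animal gave 0 to 2 (2 without male 1, 1 without male 4), and 0 were called with a replicate block by title number, fixed or random. Between title numbers, where 0 were called, the count was 1 with no filter, 1 without the 3 arrays apart, and 0 to 3 with 1 animal left out (3 without female 2 or female 5, 1 without male 4). For the sex difference compared between title numbers, where 2 were called, it was 0 with the authors' log2 values, with no background correction, with an offset of 50 and with a filter on all 9 arrays, 4 with median scaling, 5 with no filter, and 0 to 5 with 1 animal left out (5 without female 3, 1 without male 3 or male 4, 0 without male 1, male 2 or female 2). That fit could not be made without female 1 or without the arrays apart. Tested members with a within-sex SD above 0.3, here 4, numbered 2 at an offset of 50 and 2 to 4 with 1 animal left out, 2 of them without female 4, settings chosen after seeing the data. Of 16 genes described between the sexes, all moved by over 1.5 times under some alternative, and 1 turned: Sema3e, at 0.10, ranged from -0.014 without male 3 to 0.21 without male 2 with 1 animal left out, and was 0.24 without the 3 arrays apart. The causes were not tested. Members near the background bound are limited by signal, since their differences are compressed by the offset.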
